A study of Homo sapiens with 52 samples.

Results

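Silencing of CDH5, the gene for the endothelial adhesion protein VE-cadherin, was profiled by RNA-seq in TeloHAEC, a line of human aortic endothelial cells immortalised with telomerase. The members are the 2 libraries whose guide RNA targeted CDH5, chosen by their label, and they were compared with the 4 libraries that carried non-targeting guides. These 6 belong to a set of 24 libraries with 10 targets, 2 guides for each, within a series of 52 libraries. All 24 came from cells that carry a doxycycline-inducible dCas9-KRAB-BFP repressor and the rtTA activator, which had been selected with hygromycin and sorted for BFP. A guide vector was added by lentivirus under blasticidin selection, and all 6 libraries, controls included, then had 2 µg/ml doxycycline for 5 days in growth medium without added cytokine. The 2 CDH5 libraries differ in their guide, as do the 4 controls, and the labels do not say whether they came from separate cultures. The p-values measure the spread between libraries of different guides within 11 groups, the 10 targets and the controls, over all 24 libraries. This spread may be technical in part.

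VE-cadherin is a calcium-dependent transmembrane protein that binds VE-cadherin on the neighbouring cell and builds the adherens junction between endothelial cells. Its cytoplasmic tail holds p120-catenin and either β-catenin or plakoglobin, and α-catenin joins the complex to actin. The junction is known for its part in vascular permeability, contact inhibition of growth and the sensing of flow. CRISPR interference acts at the promoter, so the first thing to read is the RNA of the target itself.

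Both CDH5 guides are shown because each stands for 1 library, and a result seen with both does not rest on a single guide. Guide 2 is shown with the bases that follow it in the genome on the strand it reads along, and the capitals mark the PAM, the short motif that Cas9 needs beside its site.

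CDH5 guide 1: gccagctggaaaacctgaag

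CDH5 guide 2 with its PAM: gttggactgcctgtccgtccaGGG

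Guide 2 has 21 bases and matched CDH5 alone among 206694 GENCODE 29 transcripts, at chr16:66366706-66366726 on the minus strand of GRCh38. This lies in exon 1, in the 5′ UTR of the plus-strand gene. The site begins at base 17, 77 or 85 of the 3 annotated CDH5 transcripts that hold it. Guide 1 has 20 bases and matched 0 transcripts, and its site was not located here. The 4 non-targeting guides also matched 0 transcripts each.

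CDH5 RNA fell to a small remainder with both guides. Its level was 9.96 TPM (a share of the library that is already divided by gene length) with guide 1 and 9.36 TPM with guide 2. The 4 control libraries had 345, 378, 373 and 358 TPM. Both knockdown libraries lay far below every control, at 2.74% and 2.58% of the control mean of 363 ± 15.1 TPM (SD, n = 4). On the scale of log2(TPM + 1) the difference was -5.09 (SE 0.131, 95% interval -5.37 to -4.82, limma, Benjamini-Hochberg adjusted p = 2.94e-14). In the 22 libraries that carried other guides CDH5 ranged from 255 to 530 TPM, so no other guide brought it near the knockdown level. The guides did not differ detectably from each other in this gene, with -5.05 for guide 1 and -5.14 for guide 2 (difference 0.08, SE 0.22, limma adjusted p = 1). In bulk RNA, fewer cells of a kind and less RNA per cell cannot be told apart.

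BEAN1, the next protein-coding gene after CDH5 on the same strand, rose with both guides. It encodes a membrane protein known to bind the ubiquitin ligase NEDD4. Its level was 22.1 TPM with guide 1 and 23.7 TPM with guide 2. The controls had 6.39, 5.98, 4.92 and 5.15 TPM. Both knockdown libraries lay above every control, at 407% of the control mean. The log2(TPM + 1) difference was 1.86 (SE 0.177, 95% interval 1.48 to 2.23, limma adjusted p = 4.27e-05), with 1.81 for guide 1 and 1.90 for guide 2. Across the other 22 libraries BEAN1 ranged from 2.35 to 6.39 TPM, and both CDH5 libraries were therefore the highest of the 24.

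**Figure D1:**
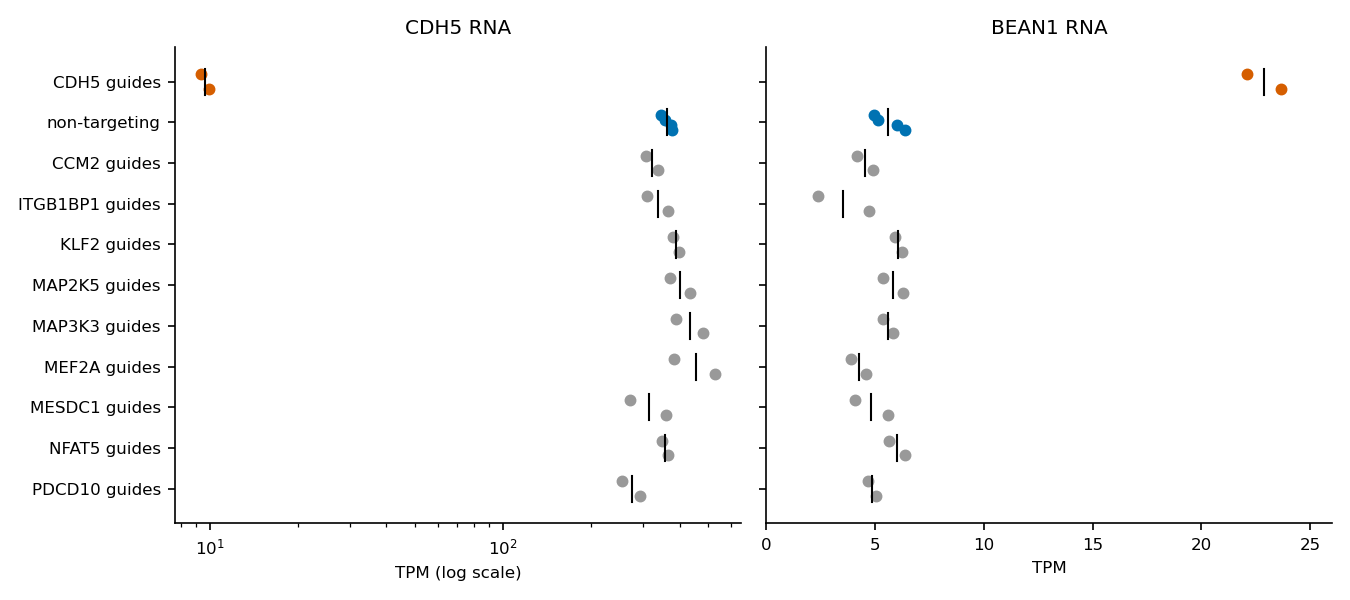
TPM of CDH5 (left, log axis) and BEAN1 (right, linear axis) in the 24 libraries, 1 point per library, by the gene its guide targets; black bars are group means. The 2 CDH5 libraries sit at 9.96 and 9.36 TPM for CDH5 and at 22.1 and 23.7 TPM for BEAN1, apart from all 22 others.

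The window before the BEAN1 start is shown because BEAN1 is the only gene called higher. It comes from RefSeq on GRCh38.p14, chr16:66427045-66427294 on the plus strand, which are the 250 bases before the annotated start, and capitals mark each GC box (GGGCGG on either strand, where neighbouring matches may share a base).

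BEAN1 promoter: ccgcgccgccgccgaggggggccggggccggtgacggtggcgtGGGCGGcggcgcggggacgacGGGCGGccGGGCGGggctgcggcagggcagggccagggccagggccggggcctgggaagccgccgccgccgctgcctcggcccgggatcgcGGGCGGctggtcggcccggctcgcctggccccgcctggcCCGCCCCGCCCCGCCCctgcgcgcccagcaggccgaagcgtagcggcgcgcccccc

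The window holds 7 GC boxes. Of 35116 RefSeq promoter windows of this length, 42.6% hold at least 1 and 1.12% hold 7 or more. Its GC content is 87.6%, against a median of 58.0% over all windows, and 0.0883% of windows have as much. It holds 43 CpG, against a median of 11. In this window with the 50 bases after the start, the best alignment to an NGG PAM left 9 mismatches for guide 1 and 10 for guide 2. A motif match is a description of letters and not of a bound site.

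The other genes of the neighbourhood were examined because a promoter-bound repressor acts on chromatin. Among the 25 RefSeq genes on either side of CDH5, 13 were tested, all of them after CDH5, and 1 of the 13 was called, BEAN1, against 0.0141% of all genes tested. TK2, the mitochondrial thymidine kinase, had 37.2 and 36.2 TPM with the guides against 36.3, 35.5, 33.7 and 33.5 TPM in controls. Its log2 difference was 0.08 (95% interval -0.15 to 0.31). CKLF, a chemokine-like factor, had 74.4 and 69.2 TPM against 55.6, 58.6, 65.3 and 59.1 TPM. Both libraries lay above every control, and the difference of 0.26 (95% interval 0.06 to 0.47, limma adjusted p = 1) did not pass the adjustment over all genes. Reads of CKLF can be shared with the annotated read-through with CMTM1, and the authors' quantification may have split them. That read-through, CKLF-CMTM1, was among the 13 tested and averaged 6.11 TPM with the guides against 3.29 TPM in controls. Chosen after its values were seen, it had a difference of 0.73 (95% interval -0.43 to 1.89) and was not called.

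Intervals were within 0.5 log2 units of 0 for 6 of the 13 tested neighbours, against 53.6% of all genes tested. TK2, CKLF, CMTM4 and NAE1 were among the 6. CMTM4 and CMTM3 encode MARVEL-domain membrane proteins. CMTM4 had 5.21 and 6.79 TPM against 4.64 to 6.35 TPM in controls. CMTM3 had 141 and 103 TPM against 103, 119, 99.5 and 91.6 TPM in controls, with overlapping groups. DYNC1LI2, a dynein light intermediate chain, had 52.3 and 51.5 TPM against 35.9 to 52 TPM, a difference of 0.22 (95% interval -0.10 to 0.54). NAE1, a subunit of the NEDD8-activating enzyme, had 39.4 and 42.2 TPM against 35.1 to 41.9, with 0.08 (-0.14 to 0.31). PDP2, a pyruvate dehydrogenase phosphatase, had 6.51 and 8.32 TPM against 6.37, 4.93, 6.03 and 6.29 TPM, above every control and short of the threshold. Over the 13 tested neighbours the median difference was 0.12, and over the 12 without BEAN1 it was 0.11, against 0.03 over all genes tested. LINC00920 and BEAN1-AS1, the non-coding genes beside BEAN1, were not analysed here.

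**Figure D2:**
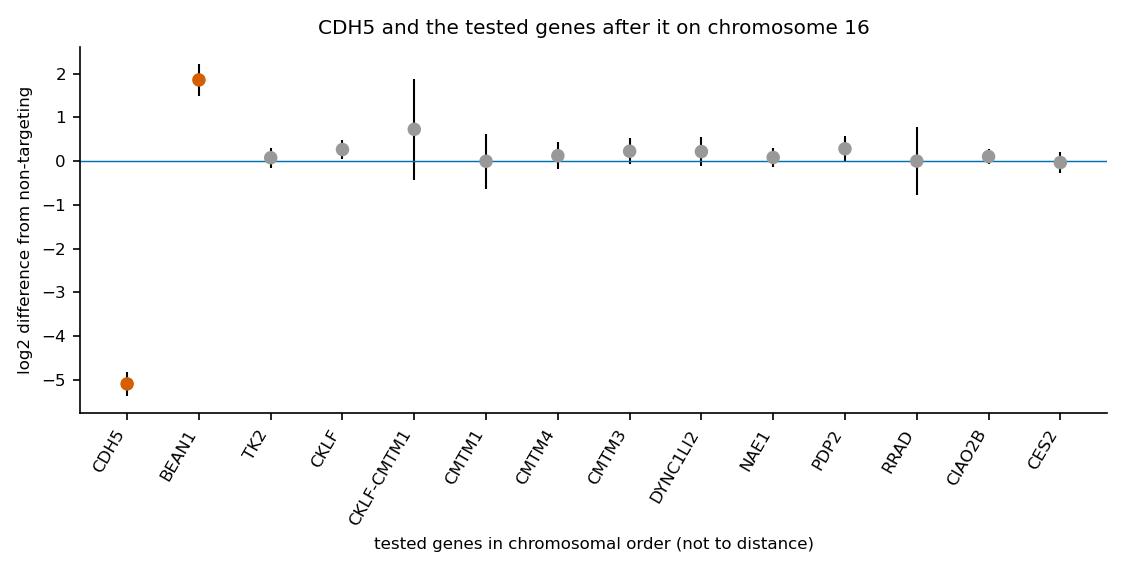
Log2(TPM + 1) difference between CDH5 guides and non-targeting guides for CDH5 and the 13 tested genes after it, in chromosomal order with equal spacing; bars are 95% intervals and orange marks an adjusted p under 0.05. BEAN1 stands at 1.86 beside CDH5 at -5.09, and TK2, next after it among those tested, is at 0.08.

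Across the transcriptome the loss of CDH5 RNA came with few detectable differences. Of 14143 genes tested, 2 were called at an adjusted p under 0.05, which is 0.0141%, and these were CDH5, lower, and BEAN1, higher. The smallest adjusted p of any other gene was 1. At an unadjusted limma p under 0.05 there were 402 genes (2.84%), 259 higher and 143 lower. In 1854 genes (13.1%) the 2 knockdown libraries did not overlap the 4 controls, 1230 above and 624 below. Lying above or below every control was thus common among genes that were not called, and does not by itself show a change. The median log2 difference over all genes was 0.03, with quartiles of -0.07 and 0.13.

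A p above the threshold does not show that a gene stayed the same, so each gene was also read by its interval. For 7580 genes, 53.6% of those tested, the 95% interval lay within 0.5 log2 units of 0 on either side. Such genes are called bounded. The share depended on the level: 10.1% of 4352 genes under 5 TPM in controls, 54.6% of those from 5 to 20 TPM, 83.6% of those from 20 to 100 TPM and 90.0% of 1522 genes over 100 TPM. The median half-width of the interval was 0.60 log2 units in the lowest class and 0.22 in the highest. A change of 0.5 log2 units is thus bounded for most well expressed genes and cannot be judged for most weakly expressed ones. The interval rests on the mean of both guides, and a mean near 0 can come from guides that lie apart. In 1281 genes (9.06%) the guides lay outside the control range on opposite sides, as in 13 of the 154 genes chosen to be named. Where a pair of values is given for a gene, guide 1 comes before guide 2, and a range after them is that of the 4 controls. The number that follows is the log2 difference, with its 95% interval in brackets.

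**Figure D3:**
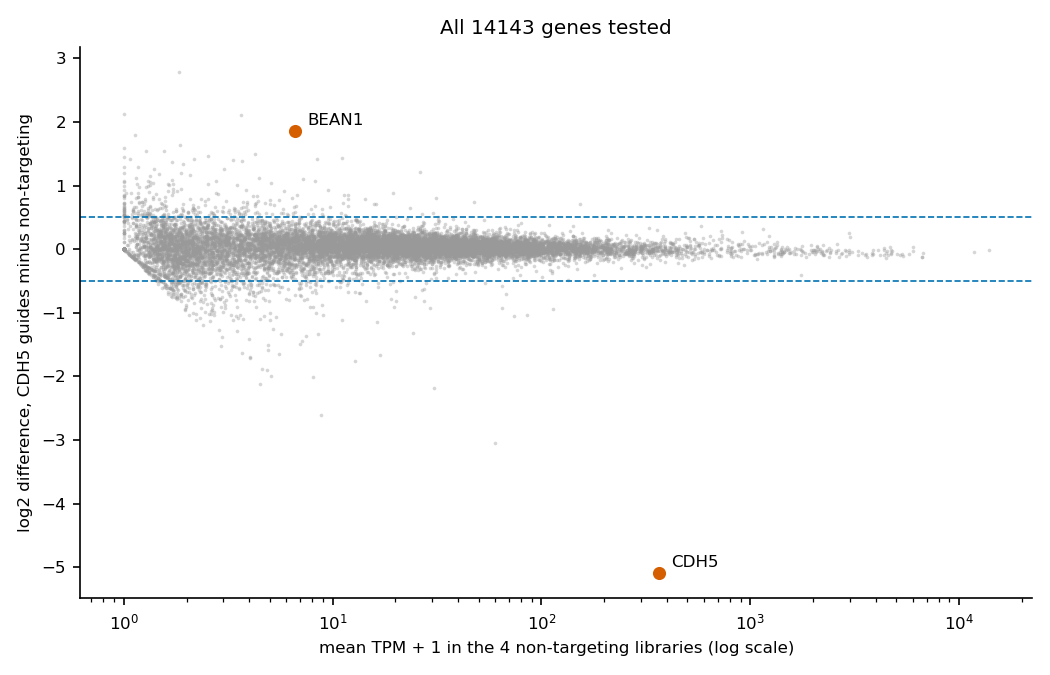
Log2(TPM + 1) difference (vertical) against the mean TPM + 1 of the 4 non-targeting libraries (horizontal, log axis) for the 14143 genes tested; orange points have an adjusted p under 0.05 and dashed lines mark 0.5 log2 units either way. CDH5 and BEAN1 are the called genes, and the spread of the others narrows as the level rises.

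SNURF and AC010323.1 had the largest uncalled rise and fall among genes whose higher group averaged 5 TPM or more, and both were chosen after their values were seen. SNURF had 11.2 and 8.47 TPM with the guides against 2.80, 0, 0 and 0.57 TPM in controls, a difference of 2.78 (95% interval 1.38 to 4.18, limma adjusted p = 1). It shares transcripts with SNRPN, so the authors' quantification may have split its reads. AC010323.1 had 43.3 TPM with guide 1 and 0.15 TPM with guide 2, against 51.7, 47.9, 66.8 and 68.4 TPM. Guide 1 lay just under the controls and guide 2 far under them.

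None of the other cadherins tested was called, and 2 of 3 were bounded. CDH13, T-cadherin, which is held to the membrane by a lipid anchor, had 51.4 and 48.8 TPM against 49.2, 55.4, 50.7 and 52.3 TPM in controls. Its groups overlapped, with a difference of -0.05 (95% interval -0.40 to 0.31). CDH24 had 14.4 and 14.5 TPM against 15.0, 14.5, 14.8 and 15.3 TPM, a difference of -0.04 (95% interval -0.39 to 0.31). CDH2, N-cadherin, the other classical cadherin of endothelial cells, had 10.4 and 12.6 TPM against 13.1, 11.2, 13.9 and 12.3 TPM. Its interval of -0.54 to 0.29 passed just outside the bound. CDH1, CDH3, CDH4, CDH6 and CDH11 did not reach the level for testing, and in each of the 6 libraries they were below 1 TPM.

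The make-up of the cadherin RNA was turned around, as must follow when CDH5 falls and the other 8 stay near their levels. CDH5 was 81.6% to 82.4% of the summed TPM of the 9 cadherins in the controls, and 11.4% and 10.9% in the knockdown libraries. The other 8 summed to 77.1 and 76.3 TPM with the guides and to between 77.5 and 81.3 TPM in controls. CDH13 was thus the most abundant of these RNAs after the knockdown, at a level that overlapped its own controls. Of the wider superfamily 9 genes were tested and 0 called. PCDH12, a protocadherin of endothelial junctions, had 42.5 and 32.3 TPM against 37.6 to 49, with -0.21 (-0.56 to 0.14). PCDH1 had 50.8 and 44.6 TPM against 38.6 to 40.6, with 0.26 (-0.10 to 0.62), both guides above the controls. DCHS1, an atypical cadherin, had 29.9 and 25.6 TPM against 28.9 to 31.1, with -0.12 (-0.58 to 0.35).

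Of 16 catenin and adherens scaffold genes tested, 0 were called and 12 were bounded. Of the 16, 8 had 20 to 100 TPM in controls and 6 had over 100 TPM, and 6 and 5 of these were bounded, against 83.6% and 90.0% of all genes at those levels. CTNNB1, β-catenin, had 137 and 146 TPM against 136, 137, 145 and 113 TPM, a difference of 0.09 (95% interval -0.15 to 0.33). CTNND1, p120-catenin, which protects VE-cadherin from endocytosis, had 105 and 111 TPM against 108, 105, 110 and 96.4 TPM, with 0.04 (-0.18 to 0.27). CTNNA1, α-catenin, had 250 and 276 TPM against 262, 271, 272 and 269 TPM, with -0.03 (-0.22 to 0.16). In all 3 the groups overlapped.

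JUP, plakoglobin, which takes the place of β-catenin on the tail, had 163 and 121 TPM against 150, 165, 140 and 138 TPM. Its interval of -0.73 to 0.59 was wide, and its groups overlapped. CTNNAL1, a relative of α-catenin, had 26.8 and 33.7 TPM against 29 to 31.5, so guide 1 lay below and guide 2 above every control, and their mean was bounded at -0.01. PKP4, of the p120 family, had 19.8 and 20.8 TPM against 20.7 to 21.6, bounded at -0.05. ARVCF, of the same family, had 29.5 and 23.1 TPM against 24.9 to 32, with -0.16 (-0.66 to 0.35). For both p120 relatives at least 1 guide was below the controls. AFDN, afadin, the actin-binding partner of nectins, had 38.3 and 38.6 TPM against 34 to 41.8, bounded at -0.02. NECTIN1 had 14.1 and 16.9 TPM against 13.7 to 17.3, bounded at 0.04. NECTIN2 had 154 and 140 TPM against 136 to 141, bounded at 0.07. Nectins are adhesion receptors of the adherens junction. NECTIN3 had 11.7 and 13.7 TPM against 9.16 to 13.1, with 0.19 (-0.13 to 0.51). PVR, a nectin-like receptor, had 90.1 and 103 TPM against 85.1 to 98.8, with 0.05 (-0.48 to 0.58).

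VCL, vinculin, which is recruited to α-catenin under tension, had 115 and 129 TPM against 108, 103, 112 and 105 TPM. Both libraries were above every control, but the difference of 0.19 (95% interval 0.00 to 0.38, limma adjusted p = 1) did not pass the adjustment, and its whole interval stayed under 0.5. VEZT, LIMA1 and IQGAP1 are further proteins of the junction's link to actin. VEZT had 50.8 and 55.2 TPM against 42.9 to 53.2, bounded at 0.11. LIMA1 had 40.8 and 47.5 TPM against 39.1 to 44, bounded at 0.09. IQGAP1 had 85.7 and 118 TPM against 82.9 to 102, bounded at 0.16. In all 3 guide 2 was above the controls and guide 1 among them.

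Tight junction genes were also without a call. Of 19 tested, 0 were called and 8 were bounded, with a median of 0.06. CLDN5, claudin-5, the main claudin of endothelial tight junctions and a gene known to depend on VE-cadherin, had 6.60 TPM with guide 1 and 3.26 TPM with guide 2. The controls had 6.39, 9.50, 8.06 and 5.19 TPM, so guide 1 lay among the controls and guide 2 below them. The difference of -0.51 (95% interval -1.38 to 0.36, limma adjusted p = 1) allows both a fall of more than 1 log2 unit and a small rise.

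ESAM, an endothelial adhesion molecule of tight junctions, had 556 and 535 TPM against 551, 522, 544 and 550 TPM, with 0.01 (95% interval -0.19 to 0.21). F11R, which is JAM-A, had 124 and 138 TPM against 128 to 162, bounded at -0.11. JAM3 had 86.7 and 89.4 TPM against 76.3 to 96.5, bounded at 0.04. TJP1, the scaffold ZO-1, had 23.6 and 22.9 TPM against 16.3, 22.3, 20.5 and 17.7 TPM, above every control, with 0.28 (-0.25 to 0.80). The polarity genes PARD3 and PRKCI had guides on opposite sides of the controls. PARD3 had 13.9 and 24.4 TPM against 16.4 to 18.1, with -0.29 for guide 1 and 0.48 for guide 2. PRKCI had 11.3 and 14.6 TPM against 12.3 to 13.4, with -0.16 and 0.18. Their bounded means of 0.09 and 0.01 average these. MPDZ, a scaffold protein, had 26.6 and 30.8 TPM against 26.3 to 33, bounded at -0.03. CLDN15 had 6.56 and 6.78 TPM against 4.9 to 6.66, bounded at 0.15. CGNL1, paracingulin, had 13 and 10.6 TPM against 9.97 to 12.5, with 0.09 (-0.34 to 0.52). OCLN (occludin), CGN, CLDN1, CLDN11 and MARVELD2 were below 1 TPM in each of the 6 libraries.

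Other proteins of the endothelial contact were 12 tested, 0 called and 7 bounded. PECAM1, the adhesion molecule CD31 that forms a flow-sensing complex with VE-cadherin, had 668 and 656 TPM against 761, 664, 716 and 676 TPM. Its difference was -0.09 (95% interval -0.48 to 0.30). ICAM2 had 498 and 460 TPM against 487, 503, 459 and 460 TPM, with 0.01 (-0.19 to 0.21). ENG, the TGF-β co-receptor endoglin, had 556 and 581 TPM against 561 to 658, bounded at -0.08. CD99 and CD99L2 take part in leukocyte passage. CD99 had 4532 and 4348 TPM against 4230 to 4602, bounded at 0.02. CD99L2 had 56 and 62.8 TPM against 60 to 70.6, bounded at -0.09. ROBO4, a guidance receptor of endothelium, had 199 and 210 TPM against 192 to 205, bounded at 0.04.

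GJA1, a gap junction gene, had 49.8 and 61.2 TPM against 46.7 to 54, bounded at 0.15. GJC1, another connexin, had 11.6 and 9.88 TPM against 7.11 to 10.9, with 0.25 (-0.22 to 0.71). PANX1, a channel protein, had 11.6 and 11.1 TPM against 7.33 to 11, with 0.20 (-0.16 to 0.56). The sialomucins CD34 and EMCN were lower in level and could not be bounded, with intervals of -0.65 to 0.61 and -1.37 to 0.44. CD34 had 15.5 and 7.91 TPM against 9.17 to 14.2, above every control with guide 1 and below with guide 2. For EMCN guide 1 had 4.79 TPM and guide 2 had 2.48 TPM, against controls from 2.59 to 9.45 TPM.

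**Figure D4:**
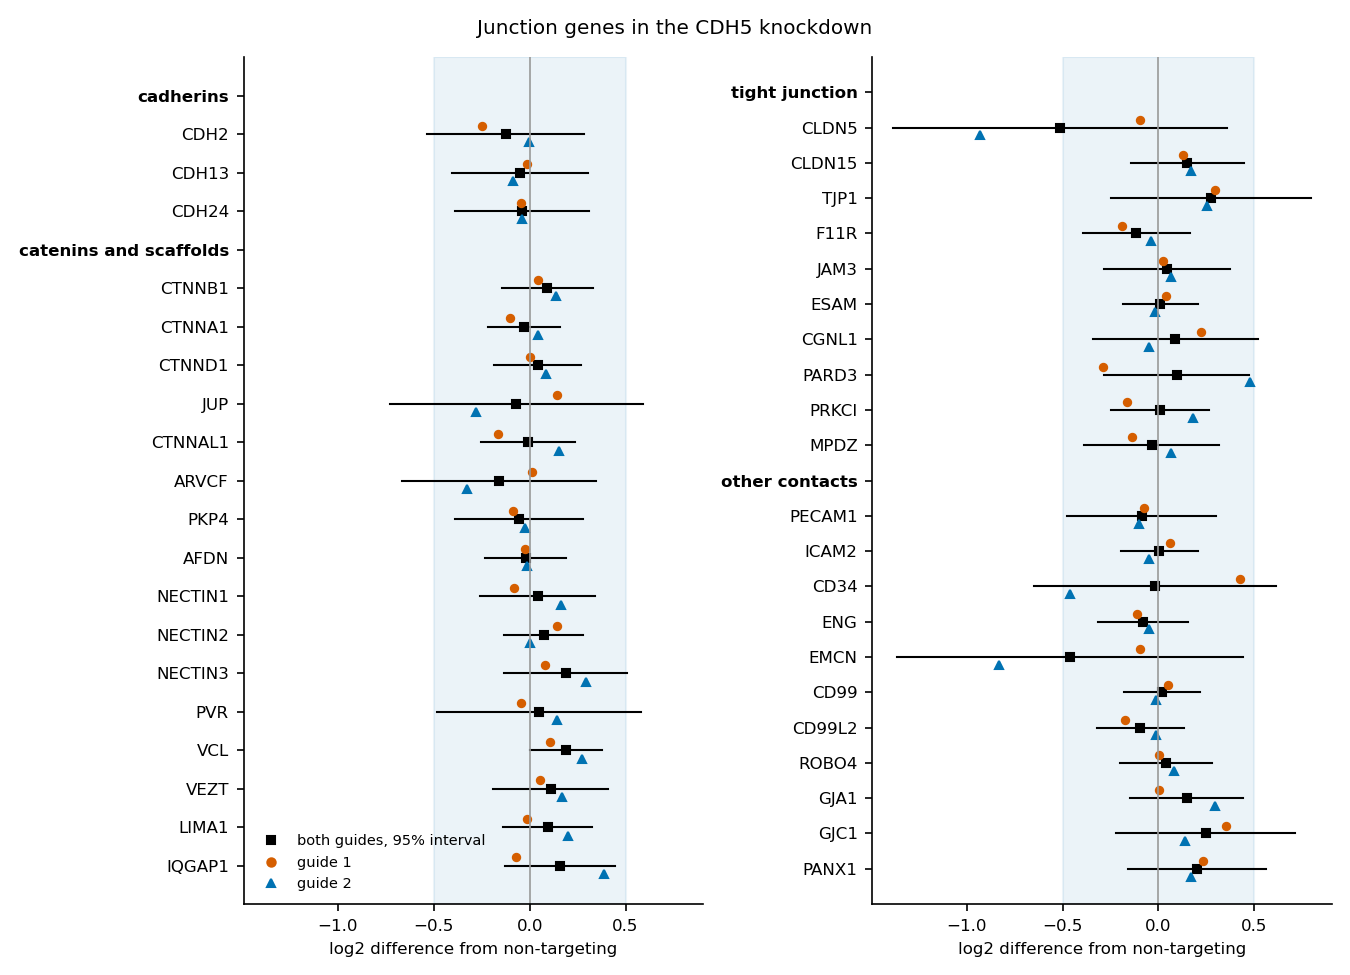
Log2(TPM + 1) difference from the non-targeting libraries for cadherins, catenins and scaffolds (left) and for tight junction and other contact genes (right) that are named in the text; squares with bars are both guides with the 95% interval, circles guide 1, triangles guide 2, and shading marks 0.5 log2 units either way. CTNNA1, ESAM and ICAM2 have intervals inside about 0.2, while CLDN5, EMCN and JUP reach past 0.5.

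Genes that act downstream of VE-cadherin, or that set its phosphorylation and turnover, were mostly bounded, as were most well expressed genes. Of 26 tested, 0 were called and 21 were bounded, with a median of 0.05. Of the 26, 15 had 20 to 100 TPM in controls and 7 had over 100 TPM. Of these 13 and 7 were bounded, against 83.6% and 90.0% of all genes at those levels. RHOA, the GTPase of stress fibres, had 895 and 921 TPM against 891, 883, 869 and 847 TPM, with 0.06 (95% interval -0.16 to 0.27). CDC42 and RAC1 are GTPases that strengthen junctions. CDC42 had 290 and 271 TPM against 254 to 284, bounded at 0.04. RAC1 had 275 and 266 TPM against 263 to 282, bounded at -0.01. PTPRB, the phosphatase VE-PTP that binds VE-cadherin, was chosen after its values were seen and had 39.2 and 36.2 TPM against 37.6, 35.5, 40.4 and 38.5 TPM. It was bounded at -0.01 (-0.24 to 0.22).

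β-catenin is known to switch on Wnt target genes when it is not held at the membrane. Of 17 such genes only 6 were expressed enough to test, 0 were called and 2 were bounded. MYC had 224 and 194 TPM against 216, 213, 221 and 237 TPM, bounded at -0.08 (95% interval -0.32 to 0.15). CCND1, cyclin D1, had 147 and 134 TPM against 136 to 175, with -0.20 (-0.53 to 0.14). TNFRSF19, a receptor, had 83.8 and 83.6 TPM against 69.2 to 80, with 0.18 (-0.48 to 0.84), both guides above the controls. AXIN2, a direct target chosen after its values were seen, had 0.87 and 1.66 TPM against 1.56, 0.72, 1.04 and 1.17 TPM, so both groups were near the lower limit of testing.

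For FOXO1 and PI3K signalling, 12 genes were tested, 0 called and 4 bounded. FOXO1, a transcription factor restrained by AKT and known to repress CLDN5, was chosen after its values were seen and had 18 and 17.4 TPM against 19.1, 18.1, 20.2 and 17.2 TPM. It was bounded at -0.07 (95% interval -0.42 to 0.29). SESN1, CCNG2 and TXNIP are FOXO targets. SESN1 had 24 and 27.4 TPM against 21.1 to 22.8, bounded at 0.20. CCNG2 had 17.3 and 20.9 TPM against 16.4 to 21.5, bounded at 0.00. TXNIP had 12.4 and 23.5 TPM against 13.2 to 35.5, with -0.32 (-2.31 to 1.68). Targets of YAP and TAZ, co-activators that respond to cell contact, were 20 tested, 0 called and 9 bounded. Among them CCN2 had 137 and 228 TPM against 156, 138, 204 and 268 TPM, with -0.07 (-0.75 to 0.61). CCDC80 had 150 and 188 TPM against 149 to 206, with -0.07 (-0.53 to 0.38). NT5E had 113 and 146 TPM against 123 to 141, with guide 1 below and guide 2 above every control and a bounded mean of -0.02.

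Endothelial identity genes were 19 tested, 0 called and 11 bounded. Their summed TPM was 3319 with guide 1 and 2998 with guide 2, against 3124 to 3339 in controls, so the cells had the RNA of endothelial cells in all 6 libraries. EGFL7, a secreted endothelial factor, had 853 and 780 TPM against 844 to 913, bounded at -0.10. ECSCR had 447 and 443 TPM against 431 to 446, bounded at 0.01. TIE1, a receptor of the angiopoietin system, had 461 and 391 TPM against 412 to 454, above every control with guide 1 and below with guide 2, and its mean was bounded at -0.02. ERG and TEK were chosen after their values were seen: ERG, an ETS factor that activates CDH5, had 109 and 91.8 TPM against 80.2 to 98, bounded at 0.15, and TEK had 70.2 and 69.4 TPM against 62.9 to 78.8, with -0.04 (-0.52 to 0.44).

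VWF and SHANK3 were the 2 of 19 tested members with an unadjusted limma p under 0.05, against 2.84% of all genes tested. Both were chosen after their values were seen. VWF, the von Willebrand factor of endothelial granules, had 42.9 TPM with guide 1 and 25.1 TPM with guide 2 against 53.6, 62.9, 68.5 and 69.9 TPM. Both libraries lay below every control, with a difference of -0.93 (95% interval -1.84 to -0.01, limma adjusted p = 1). SHANK3, a scaffold protein, had 15.4 and 14.4 TPM against 12.5, 6.52, 9.28 and 11.6 TPM, with 0.57 (0.18 to 0.97, limma adjusted p = 1).

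The flow-regulated genes linked to KLF2 were 18 tested, 0 called and 2 bounded, so most intervals were wide. The spread behind each interval is pooled within all 11 groups, the other knockdowns included. Among these is the KLF2 knockdown itself, with KLF2 at 2.99 and 6.12 TPM. KLF2, a transcription factor induced by laminar flow, had 128 and 151 TPM against 123, 107, 108 and 91.3 TPM. Both libraries were above every control, and the interval of -0.76 to 1.5 spans a large fall and a large rise. S1PR1, a barrier-strengthening receptor, had 229 and 236 TPM against 211, 204, 211 and 198 TPM, bounded at 0.18 (-0.10 to 0.45). LYVE1, a hyaluronan receptor, had 191 and 242 TPM against 211 to 286, with -0.12 (-0.55 to 0.30). CALCRL, a peptide receptor, had 143 and 131 TPM against 124 to 168, bounded at -0.07.

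KLF4, NOS3, THBD and EDN1 of this list were chosen after their values were seen. NOS3, endothelial nitric oxide synthase, had 126 and 127 TPM against 128, 124, 123 and 119 TPM, a close match in levels with an interval of -0.51 to 0.59. THBD, thrombomodulin, had 77.3 and 84.3 TPM against 82.9 to 90, with -0.10 (-0.96 to 0.75). KLF4, a factor related to KLF2, had 11.5 and 13.5 TPM against 7.07 to 10.5, with 0.48 (-0.34 to 1.29), both guides above the controls. EDN1, the vasoconstrictor endothelin-1, had 13.1 and 13.9 TPM against 16.7, 27.5, 25.9 and 25.4 TPM. Both libraries lay below every control, with -0.76 (95% interval -1.54 to 0.03, limma adjusted p = 1).

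Notch and arteriovenous genes were 14 tested, 0 called and 5 bounded. NR2F2, the venous factor COUP-TFII, had 216 and 168 TPM against 210 to 232, with -0.20 (-0.55 to 0.15). EPHB4, a venous receptor, had 237 and 185 TPM against 208 to 239, bounded at -0.04. NOTCH1 had 43.1 and 41.8 TPM against 40.1 to 50.9, bounded at -0.10. The Notch targets HEY1 and HES1, chosen after their values were seen, lay above every control. HEY1 had 4.04 and 6.92 TPM against 3.46, 3.34, 2.69 and 2.15 TPM, with 0.71 (0.05 to 1.36, limma adjusted p = 1). HES1 had 47.9 and 55.1 TPM against 37.8, 39.1, 38.6 and 32.3 TPM, with 0.47 (0.02 to 0.91, limma adjusted p = 1), and neither passed the adjustment.

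VEGF and tip cell genes were 13 tested, 0 called and 5 bounded. VE-cadherin is known to associate with the VEGF receptor KDR, which was chosen after its values were seen and had 81.9 and 69.4 TPM against 84.5, 94.1, 89.5 and 76.5 TPM. Its difference was -0.19 (95% interval -0.53 to 0.16). APLN, the peptide apelin, had 1086 and 1008 TPM against 973 to 1185, bounded at -0.06. NRP2, a VEGF co-receptor, had 233 and 268 TPM against 249 to 296, bounded at -0.14. NRP1, its relative, had 258 and 259 TPM against 248 to 293, with -0.06 (-0.58 to 0.46). TGF-β and BMP genes were 17 tested, 0 called and 4 bounded. ACVRL1, a BMP receptor, had 640 and 615 TPM against 564 to 620, bounded at 0.10. TGFBR2, a TGF-β receptor, had 155 and 163 TPM against 152 to 171, bounded at -0.05.

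Of 17 actin and SRF target genes, 0 were called and 15 were bounded, with differences from -0.11 to 0.25. Of the 17, 14 had over 100 TPM in controls and 13 of these were bounded, a share near the 90.0% of all genes at that level. ACTB, β-actin, had 3764 and 3964 TPM against 3651 to 4037, bounded at -0.01. ACTG1, γ-actin, had 4278 and 4273 TPM against 4197 to 4697, bounded at -0.06. TPM4, a tropomyosin, had 910 and 1137 TPM against 926 to 1028, with guide 1 below and guide 2 above every control and a bounded mean of 0.04. Integrin and focal adhesion genes were 15 tested, 0 called and 8 bounded. ITGA5 had 1263 and 1400 TPM against 1224 to 1379, bounded at 0.02. ITGB1 had 1043 and 1324 TPM against 1019 to 1139, bounded at 0.09. ITGB5 had 299 and 328 TPM against 293 to 351, bounded at -0.06. Mesenchymal and matrix genes were 15 tested, 0 called and 6 bounded, with a median of 0.13. VIM, the mesenchymal filament vimentin, had 13170 and 14401 TPM against 13655 to 14096, with guide 1 below and guide 2 above every control and a bounded mean of -0.01. SPARC, a matrix protein, had 5105 and 4502 TPM against 4448 to 4927, bounded at 0.04. FN1, fibronectin, had 685 and 736 TPM against 643 to 724, bounded at 0.06.

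Cell cycle genes were 23 tested, 0 called and 4 bounded, with a median of -0.15 against 0.03 for all genes. PCNA, the replication clamp, had 93.1 and 89.5 TPM against 84.2 to 92.2, bounded at 0.06. TYMS, thymidylate synthase, had 34.9 and 33.5 TPM against 28.7 to 36.6, bounded at 0.04. MCM7, a replication helicase subunit, had 33 and 27.2 TPM against 30.4 to 37.4, with -0.21 (-0.54 to 0.12). MCM4, of the same helicase and chosen after its values were seen, had 6.85 and 4.52 TPM against 8.53, 9.32, 6.82 and 7.55 TPM, with -0.45 (-0.87 to -0.04, limma adjusted p = 1), short of the adjusted threshold and with overlapping groups. Of 6 CDK inhibitor genes, 0 were called and 2 were bounded. CDKN1A, p21, had 698 and 908 TPM against 733 to 950, bounded at -0.10. CDKN1B, p27, had 37.2 and 40.4 TPM against 39.3 to 44.6, bounded at -0.10. CDKN2B, p15, had 15.3 and 18.1 TPM against 10.4 to 17.6, with 0.16 (-0.63 to 0.96).

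Inflammatory genes were 17 tested, 0 called and 2 bounded, with a median of 0.10. ICAM1, a leukocyte adhesion receptor, had 105 and 109 TPM against 120, 123, 121 and 116 TPM, below every control, with -0.17 (95% interval -0.58 to 0.25). CCL2, a chemokine, had 100 and 77 TPM against 72.9 to 105, with 0.02 (-0.90 to 0.95). NFKBIA, the NF-κB inhibitor, had 93 and 51.3 TPM against 59.3 to 95.2, with 0.01 (-0.53 to 0.55). Interferon genes were 11 tested, 0 called and 4 bounded, and IFI27 and IFI6 are among those interferon induces. IFI27 had 422 and 373 TPM against 352 to 389, bounded at 0.10. IFI6 had 101 and 86.9 TPM against 76 to 91.4, with 0.18 (-0.28 to 0.65). Cholesterol synthesis genes were 13 tested, 0 called and 9 bounded, and FDPS, FDFT1 and DHCR7 are enzymes of the pathway. FDPS had 374 and 464 TPM against 390 to 426, with guide 1 below and guide 2 above every control and a bounded mean of 0.03. FDFT1 had 274 and 379 TPM against 270 to 383, bounded at -0.05. DHCR7 had 208 and 281 TPM against 198 to 296, bounded at -0.02.

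**Figure D5:**
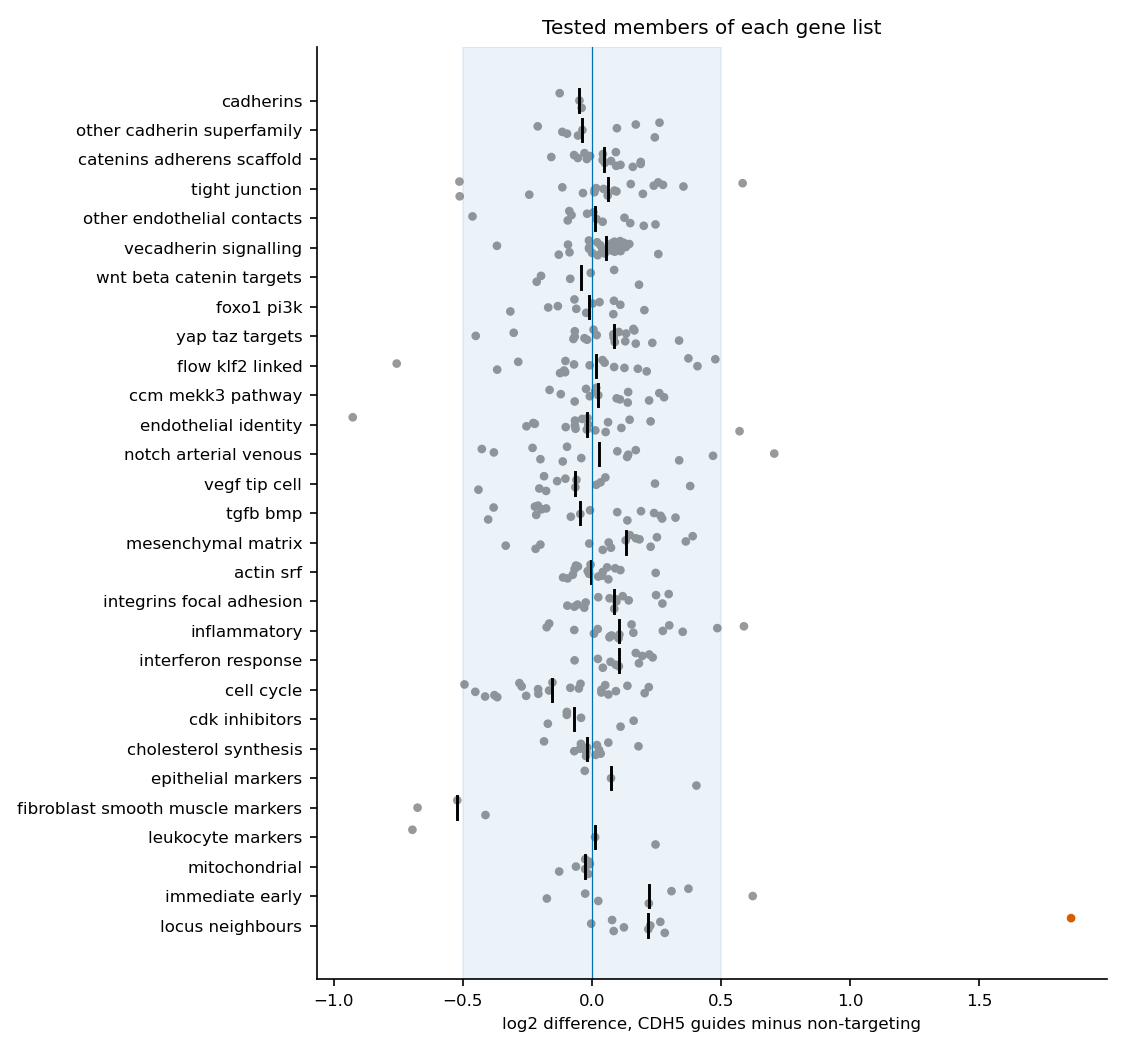
Log2(TPM + 1) difference of every tested member of the 29 gene lists, 1 point per gene, with a black bar at the median of each list and shading at 0.5 log2 units either way; orange marks an adjusted p under 0.05. BEAN1, at 1.86 among the locus neighbours, is the only called member.

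Handling, RNA quality and other cell types were read from 5 lists. Immediate early genes were 7 tested, 0 called and 2 bounded, with a median of 0.22, and their summed TPM was 348 and 340 with the guides against 310 to 325 in controls. IER2 had 108 and 97.3 TPM against 93.5 to 109, bounded at 0.02. DUSP1 had 77.8 and 78.2 TPM against 64.4 to 69.5, with 0.22 (-0.38 to 0.82). JUN had 74 and 67.7 TPM against 53.2 to 60.8, with 0.31 (-0.12 to 0.74). For DUSP1 and JUN both guides were above the controls. EGR1, chosen after its values were seen, had 1.12 and 3.12 TPM against 0.63 to 1.16, with 0.62 (0.01 to 1.23). Mitochondrially encoded genes were 7 tested, 0 called and 3 bounded, and summed to 18908 and 29355 TPM against 18219 to 28934. MT-CO2 had 5402 and 7431 TPM against 5133 to 7591, bounded at -0.06. MT-ATP6 had 4643 and 7677 TPM against 4660 to 7937, with -0.13 (-0.64 to 0.38). MT-CO1 had 3199 and 5013 TPM against 3009 to 4839, with -0.01 (-0.51 to 0.49).

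Fibroblast and smooth muscle markers summed to 8.37 and 7.61 TPM against 11.9 to 14.4 TPM in controls, with 3 of 10 tested and 0 called, and 7 below 1 TPM in each of the 6 libraries. RGS5, a signalling regulator of mural cells, made up most of the sum, with 6.87 and 6.03 TPM against 10.6, 11.1, 10.3 and 11.6 TPM. Its difference was -0.68 (95% interval -1.15 to -0.20, limma adjusted p = 1), while PDGFRB had 0.189 and 0.271 TPM against 0.312 to 1.42 and NOTCH3 had 0.241 and 0.134 TPM against 0.253 to 1.48. Leukocyte markers summed to 8.65 and 10.1 TPM against 13.4 to 14.8 TPM, with 3 of 8 tested and 0 called. CD14 held most of it, with 6.76 and 8.01 TPM against 12, 12.6, 14.1 and 11.6 TPM, while LST1 had 0.378 and 1.39 TPM against 0 to 1.29 and CD79A had 1.21 and 0.132 TPM against 0.224 to 0.549. Epithelial markers summed to 8.66 and 9.62 TPM against 6.10 to 8.07 TPM, with 3 of 10 tested and 0 called, the claudins CLDN7, CLDN4 and CLDN3. CLDN7 had 5.6 and 7.47 TPM against 3.85 to 5.93, with 0.40 (-0.06 to 0.87). CLDN4 had 0.883 and 1.19 TPM against 0.561 to 1.55, with 0.07 (-0.45 to 0.60). CLDN3 had 0.74 and 0.65 TPM against 0.328 to 1.41, with -0.03 (-0.66 to 0.60). The part of these small sums in the other results was not tested.

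The other 9 targets of the set were read in the CDH5 knockdown because several belong to the CCM and MEKK3 pathway, which acts at endothelial junctions. Of 15 pathway genes tested, 0 were called and 4 were bounded. At 20 to 100 TPM in controls 2 of 12 were bounded, against 83.6% of all genes at that level. The spread behind each interval is pooled within all groups, and so takes in each target's own guides, whose libraries can differ. With MAP2K5 guides, MAP2K5 had 26.2 and 1.27 TPM. STK24 and STK25 are kinases that bind PDCD10. STK24 had 86.6 and 106 TPM against 79.6 to 84.9, bounded at 0.22, both guides above the controls. STK25 had 260 and 225 TPM against 248 to 264, bounded at -0.07. CCM2, a scaffold of the complex, had 59.3 and 56.4 TPM against 56.4 to 61.8, with -0.02 (-0.55 to 0.50). PDCD10 had 39.6 and 35.6 TPM against 34.9 to 38.2, with 0.01 (-0.52 to 0.54). ITGB1BP1 binds integrin tails and KRIT1. ITGB1BP1 had 77.4 and 85.1 TPM against 62.5 to 70.7, with 0.26 (-0.03 to 0.55), both guides above the controls. MAP3K3, which is MEKK3, had 74.2 and 62 TPM against 69.9 to 76.4, with -0.12 (-0.69 to 0.45). MAP2K5, the kinase it activates, had 24.2 and 26 TPM against 19 to 27.7, with 0.02 (-1.14 to 1.18). The transcription factors MEF2A and NFAT5 and the actin-bundling TLNRD1, labelled MESDC1, complete the targets. MEF2A had 29.3 and 37 TPM against 23.3 to 31.8, with 0.28 (-0.20 to 0.75). NFAT5 had 12.7 and 13.4 TPM against 10.7 to 13.8, with 0.15 (-0.54 to 0.83). TLNRD1 had 44.3 and 36 TPM against 34.3 to 38.5, with 0.14 (-0.31 to 0.59). The reverse reading, CDH5 in the other knockdowns, placed the group means between 275 TPM with PDCD10 guides and 457 TPM with MEF2A guides.

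The other targets' comparisons use the same 4 control libraries. They called 1984 genes for CCM2, 1089 for ITGB1BP1, 996 for PDCD10, 78 for TLNRD1, 8 for MAP3K3, 2 for KLF2, 1 for MEF2A, 1 for NFAT5 and 0 for MAP2K5. CDH5, whose own RNA was at 2.74% and 2.58% of control, called 2. In comparison, CCM2 remained at 15.6% and 4.45% under its own guides, and MAP2K5 in 1 library and NFAT5 in another were not reduced, at 105% and 97.1%.

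A second reference, the mean of the 9 other knockdown groups, does not use the control libraries. Against it 3 genes were called, 0.0212% of those tested: CDH5 (-5.08, SE 0.11), BEAN1 (2.00, SE 0.15) and PTPN5 (-1.97, SE 0.26, limma adjusted p = 0.00239). PTPN5, a tyrosine phosphatase chosen after its values were seen, had 0.65 and 0.42 TPM with the CDH5 guides and 0.68, 0.86, 0.66 and 0.73 TPM in controls, so CDH5 and control libraries were both under 1 TPM. It reached 110 and 320 TPM with CCM2 guides and from 13.1 to 58.6 TPM with ITGB1BP1, PDCD10 and MESDC1 guides.

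The 2 guides gave similar values for CDH5 and BEAN1 and differed in 2 other genes, 0.0141% of those tested. H3F3AP4 had 139 TPM with guide 1 and 10.8 TPM with guide 2, against 102, 60.5, 92.6 and 81.4 TPM in controls. SRP9P1 had 40.8 TPM with guide 1 and 0.003 TPM with guide 2, against 36.2, 17.3, 36.7 and 28.4 TPM. Both are pseudogenes of expressed genes, so their reads can be assigned to a near-identical copy. The parent genes differed far less between the libraries. H3F3A had 507 and 511 TPM against 476 to 594 TPM in controls. SRP9 had 158 and 173 TPM against 156 to 165 TPM, with guide 2 above every control. Against the controls, guide 1 alone called 2 genes (0.0141%), CDH5 and BEAN1, and guide 2 alone called 6 (0.0424%).

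The 6 were CDH5, BEAN1, H3F3AP4, SRP9P1, AC008982.1 and AC022149.1, and a lone library was assumed to vary like the other groups. AC008982.1, chosen after its values were seen, had 9.65 TPM with guide 1 and 0.26 TPM with guide 2 against 8.70, 8.84, 16.1 and 13.5 TPM. AC022149.1, chosen likewise, had 114 and 28 TPM against 151, 89.3, 108 and 101 TPM. In all 4 of the additional genes the guide 2 library was below every control and the guide 1 library was within or above their range.

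The libraries were alike in the broad measures that follow, of which the TPM total is set largely by scaling. Sums of single lists varied more, as in the mitochondrially encoded genes given above. All 24 libraries held 96.8% to 97.2% of the full TPM total over the symbols in the table, and had 12299 to 12682 symbols at 1 TPM or more. Among the 6 libraries compared, pairwise correlations of log2(TPM + 1) across genes, which are not independent replicates, ran from 0.983 to 0.988. At least 19079 symbols differed between any pair of the 6, so none of them repeats another. TPM keep no read counts, and library depths are therefore not known.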

How the data were processed

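Poly-A RNA of CRISPRi TeloHAEC was measured in 24 libraries, of which 2 carried CDH5 guides and 4 non-targeting guides. The authors deposited TPM per gene symbol, and per the submitters' processing notes Bowtie2, kallisto and hg19 were used, with versions not given in the sources used here. Of 35587 symbols with values in these columns, 14143 with at least 1 TPM in at least 2 of the 24 libraries were tested. TPM were turned into log2(TPM + 1), which understates changes of weakly expressed genes, and fitted with limma (trend, empirical Bayes) over 11 groups and 24 libraries. All groups therefore share 1 estimate of the spread, with 13 residual degrees of freedom before moderation. The adjusted p-values are Benjamini-Hochberg over all genes tested, two-sided, called under 0.05. The 95% intervals are limma's and are not adjusted. The guides were separated in a second fit of the same libraries, where a lone library is assumed to vary like the other groups.

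The members and the 29 gene lists (444 genes) were chosen with earlier results of these data known. Named genes were CDH5, BEAN1, the largest called changes, called list members, every cadherin and every catenin, tight junction, contact and neighbour gene of at least 5 TPM in controls, the 3 highest of each other list, the other targets and genes called between guides. Others are marked as chosen after their values were seen. A few genes that the rule names are not reported here, though list counts include them. Alternatives were a pseudocount of 0.1, no filter, a filter of 5 TPM, median of ratios scaling, quantile normalisation, robust empirical Bayes, the 6 libraries alone, 22 libraries as reference, and each library left out. The fit was tested on simulated data. Guides and promoters were matched to GENCODE 29 (GRCh38) and RefSeq (GRCh38.p14). The fits ran in limma 3.58.1 under R 4.3.3, and the sequence matching and plots in pandas 2.3.3 and matplotlib 3.10.9 under Python 3.11.15.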

Additional observations from a re-analysis of the deposited data

Results flagged for a closer look

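Among 154 named genes, 7 had a control library that stood apart from the other 3, and chance gives such a value in about 1 in 20 groups. PANX1 had 7.33 TPM in control 4 against 10.5 to 11 TPM in the others. LYVE1 had 286 TPM, EPHB4 had 239 TPM and NFKBIA had 95.2 TPM in control 2, above the other 3 in each gene. STK25 had 264 TPM in control 3, and LST1 was listed at 0 TPM in the same library. PDCD10 had 34.9 TPM in control 4 against 37.7 to 38.2 TPM. None of the 7 genes was called in the CDH5 knockdown.

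The pseudogenes H3F3AP4 and SRP9P1 differed between the CDH5 guides, by 3.56 (limma adjusted p = 0.000226) and 5.38 log2 units (limma adjusted p = 0.000430), with the guide 2 library low in both. The other 22 libraries had 41.0 to 144 TPM of H3F3AP4 and 11.8 to 43.5 TPM of SRP9P1.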

How the results depend on the processing

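CDH5 and BEAN1 were called under every alternative run. The CDH5 difference ranged from -5.22 to -5.05 and that of BEAN1 from 1.81 to 2.01. No other gene was called under the alternatives, except with no filter and without guide 1. With no filter 10 genes were called, 9 higher, 16351 of 25199 were bounded, 21 were called against the other knockdowns and 242 between the guides. A pseudocount of 0.1 gave 6 between the guides. With the 6 libraries alone, 8090 of 12979 genes were bounded. Leaving out each CDH5 or control library in turn gave 2 to 6 called genes, 1 to 5 lower and 4400 to 7051 bounded. The highest counts of calls, and the lowest count of bounded genes, came without guide 1, where guide 2 stands alone and H3F3AP4, SRP9P1, AC008982.1 and AC022149.1 join the calls. Against the other knockdowns the same exercise gave 2 to 8. Without the libraries of CCM2, ITGB1BP1, PDCD10 and MESDC1 guides, an alternative chosen after seeing the data, 2 genes were called and 8001 bounded. No paired analysis was possible because the CRISPRi libraries carry guides and no replicate numbers.

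With 2 knockdown libraries, 1 per guide, most genes under 5 TPM cannot be judged to within 0.5 log2 units, and RNA says nothing of protein or of cell contacts. The depth of each library is unknown.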
